A study of Rattus norvegicus with 20 samples.

Results

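Liver RNA of 10 arrays from the 15 and 50 mg/kg dose groups was compared with that of 10 arrays from the vehicle and 0.1 mg/kg groups, over all 31042 probe sets that are not hybridisation controls. The study holds 20 arrays and all of them were used. Its agent, PBDE-47, is a brominated diphenyl ether flame retardant. The labelled groups are 5 arrays at 15 mg/kg, 5 at 50 mg/kg, 5 from corn oil vehicle and 5 at 0.1 mg/kg per day. Below, exposed arrays means those at 15 and 50 mg/kg, although the 0.1 mg/kg group was dosed with PBDE-47 too. What all 4 groups share is the strain, Wistar Han (Crl:WI (Han)), the sex label female, the left lobe of the liver, the oil and the gavage of dams at 5 mL/kg from gestation day 6 to postnatal day 4. Neither the litter nor the donor, dam or pup, is given for any liver. Because separate animals are not stated either, p-values reflect only how far these samples spread, and that spread may be technical. The pooled comparison asks about small changes that both upper doses share, which 10 arrays on each side can resolve better than 5.

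Levels are log2 RMA values as deposited, and a difference of 1 is a factor of 2. The pooled difference is the mean of the 15 and 50 mg/kg group means minus the mean of the vehicle and 0.1 mg/kg group means, from a limma fit with 1 mean per group. A probe set passed at a Benjamini-Hochberg adjusted p under 0.05. Precision is set by how many arrays there are: the median standard error of the pooled difference was 0.067, against 0.095 for 50 mg/kg minus vehicle in the same fit.

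The liver clears lipophilic foreign compounds in steps. Cytochrome P450 enzymes, fed with electrons by P450 reductase and built with heme, oxidize them, transferases couple the products to glucuronic acid, glutathione or sulfate, and membrane pumps export them. The nuclear receptors CAR (Nr1i3) and PXR (Nr1i2) and the aryl hydrocarbon receptor (Ahr) switch on many of these genes when foreign compounds are present. The proteasome, a barrel-shaped protease with a regulatory cap, degrades proteins tagged with ubiquitin, and its subunit genes are known to be regulated together by the transcription factor NRF1 (Nfe2l1).

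Levels of other tissues set 9 arrays apart and are given before the results. The mean level of a list of skeletal muscle genes was more than 2 log2 units above the lowest array on 3 arrays at 15 and 50 mg/kg and on 4 arrays of vehicle and 0.1 mg/kg, and that of exocrine pancreas genes on 2 and on 1. With either excess counted, 4 and 5 arrays were affected, and only 1 of the 5 arrays at 0.1 mg/kg was free of it. The muscle list mean had a lowest, median and highest value of 4.27, 4.92 and 8.67 at 15 and 50 mg/kg, against 4.17, 4.41 and 8.76 in vehicle and 0.1 mg/kg. The pancreas list had 4.42, 4.49 and 6.99, against 4.38, 4.47 and 6.95. Of the muscle list 0 of 23 measured members passed with limma in the pooled comparison (0 at an unadjusted p under 0.05), and of the pancreas list 0 of 16 (1 at that p). The counts below are given also without these 9 arrays, which leaves 11, and a single array then stands for the 0.1 mg/kg group. Liver markers were high on every array: Alb, the main plasma protein of hepatocytes, had 14.73, 14.78 and 14.82 at 15 and 50 mg/kg, against 14.74, 14.77 and 14.8, and the fetal liver gene Afp had 14.22, 14.31 and 14.34, against 14.21, 14.29 and 14.34.

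Promoters of 4 genes that carry the pooled result are shown before their values, because the detoxification genes and the proteasome genes moved as groups. They are from RefSeq on the GRCr8 assembly, run from 250 bases before to 50 bases after the start site, and are read 5′ to 3′ on the gene's strand. In the first pair capitals mark AGTTCA or AGGTCA on either strand, the repeated core of the elements that CAR, PXR and other nuclear receptors bind. In the second pair capitals mark CCAAT, the box bound by NF-Y, or TGACNNNGC, the core of the antioxidant response element, on either strand. Cyp3a23-3a1, a cytochrome P450 gene, lies on the minus strand at chr12:14398754-14399053. Cyp2c7, another P450 gene, lies on the plus strand at chr1:247966144-247966443. Psmc3 encodes an ATPase of the proteasome cap, at chr3:97487393-97487692 on the plus strand. Psmd1, a scaffold subunit of the cap, is at chr9:94157721-94158020 on the plus strand.
Cyp3a23-3a1: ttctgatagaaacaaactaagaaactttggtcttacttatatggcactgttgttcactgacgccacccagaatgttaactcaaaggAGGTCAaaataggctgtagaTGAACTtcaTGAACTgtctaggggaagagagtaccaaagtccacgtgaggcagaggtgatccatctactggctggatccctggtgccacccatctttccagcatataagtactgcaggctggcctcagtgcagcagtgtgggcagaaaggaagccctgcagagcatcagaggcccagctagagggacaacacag
Cyp2c7: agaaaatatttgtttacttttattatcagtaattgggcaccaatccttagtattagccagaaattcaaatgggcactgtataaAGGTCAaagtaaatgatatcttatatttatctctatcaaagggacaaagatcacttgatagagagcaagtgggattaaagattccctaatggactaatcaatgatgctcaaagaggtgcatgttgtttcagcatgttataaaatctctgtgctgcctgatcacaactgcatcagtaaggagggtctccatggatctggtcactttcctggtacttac
Psmc3: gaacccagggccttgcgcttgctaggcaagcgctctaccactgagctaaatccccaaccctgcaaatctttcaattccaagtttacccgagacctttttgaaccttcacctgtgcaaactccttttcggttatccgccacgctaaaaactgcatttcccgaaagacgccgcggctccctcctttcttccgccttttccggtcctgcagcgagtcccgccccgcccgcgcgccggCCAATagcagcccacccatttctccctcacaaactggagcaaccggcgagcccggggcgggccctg
Psmd1: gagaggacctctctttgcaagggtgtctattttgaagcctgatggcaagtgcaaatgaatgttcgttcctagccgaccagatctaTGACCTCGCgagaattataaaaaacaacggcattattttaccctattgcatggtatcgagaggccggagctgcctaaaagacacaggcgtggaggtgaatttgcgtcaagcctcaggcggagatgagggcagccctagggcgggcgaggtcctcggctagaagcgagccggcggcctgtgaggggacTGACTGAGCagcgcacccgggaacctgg

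The Cyp3a23-3a1 promoter holds 1 AGGTCA and 2 AGTTCA matches within a short stretch, and that of Cyp2c7 holds 1 AGGTCA. On the opposite strand AGTTCA is printed as TGAACT. All 4 promoters shown hold a match, which is not so for every gene that rose. Those of Cyp2a3, Alas1 and Aldh1a1 hold neither AGTTCA nor AGGTCA. Those of Psma6, Psmb4, Psmc2 and Psmc5 hold neither CCAAT nor TGACNNNGC. The letters AGTTCA were in the promoter of 9 of 22 CAR and PXR list genes with an entry (40.9%), against 15.6% of the 27457 genes in the RefSeq table and 11.2% of the genes with a probe set of their own here. AGGTCA was in 8 of those 22 (36.4%), against 16.9% and 13.7%. Among 189 genes that rose and have an entry, 14.3% held AGTTCA and 20.1% held AGGTCA. For the proteasome list CCAAT was in 12 of 22 promoters (54.5%), against 39.6% of genes in the table and 38.6% of genes with a probe set. The share was the same, 12 of 22, for the CAR and PXR list, and 50.0% for the glutathione transferases. TGACNNNGC was in 4 of those 22 (18.2%), against 13.1% and 15.2%. Psmd1 alone holds it among the 12 proteasome genes with an entry that rose. A match is a run of letters and does not show binding. The capital runs do not overlap.

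Across the array 361 of 31042 probe sets passed (1.16%), of which 274 were higher (0.883%) and 87 lower (0.28%) at 15 and 50 mg/kg. Probe sets with a single gene symbol placed 221 genes among the rises and 59 among the falls. Most of the changes were small: 220 rises (0.709%) and 74 falls (0.238%) were under 1.5-fold, which is 81.4% of the total. The median rise was 1.26-fold and the median fall 1.27-fold, and the smallest difference that passed was 1.11-fold. Of the 21 probe sets that changed at least 2-fold, all 21 rose. The median pooled difference over all probe sets was 0.005, and 52.3% were positive. At an unadjusted p under 0.05 the count was 3948 (12.7%). The total was 232 without replicate 1 at 15 mg/kg and 239 without replicate 4 at 50 mg/kg. The number under 1.5-fold was 175 and 180 without those arrays and 191 without replicate 4 at 15 mg/kg. Of the 361, 205 passed in each of the 20 fits that leave out 1 array, 170 of them rises and 35 falls. Without the 9 muscle or pancreas arrays 10 passed, all higher and all among the 361, and 0 of them was under 1.5-fold.

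**Figure D1:**
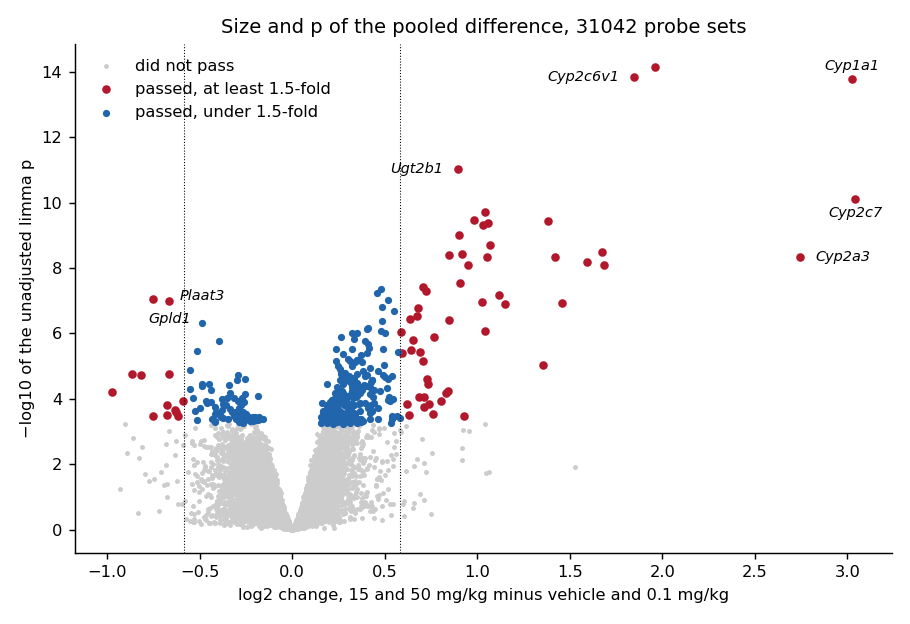
Pooled log2 difference (15 and 50 mg/kg minus vehicle and 0.1 mg/kg, horizontal) against minus log10 of the unadjusted limma p (vertical) for 31042 probe sets. Red points passed with at least 1.5-fold, blue points passed with less, grey points did not pass, and dotted lines mark 1.5-fold; 294 of the 361 that passed lie between the lines, and all 21 beyond 2-fold are on the right.

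Pooling brought in probe sets that passed at neither dose against vehicle. The pooled reference also holds the 0.1 mg/kg arrays, so this does not show that neither dose changed them alone. In the same fit 36 probe sets (0.116%) passed at 15 mg/kg against vehicle and 290 (0.934%) at 50 mg/kg against vehicle. Of the 361 in the pooled comparison, 31 passed at both doses, 172 at 50 mg/kg only, 2 at 15 mg/kg only and 156 at neither. Those 156 comprised 120 rises and 36 falls, with a median of 1.21-fold, and 142 were under 1.5-fold. In the other direction, 89 probe sets that passed at 15 or 50 mg/kg against vehicle did not pass in the pooled comparison. These comparisons share the exposed arrays and the vehicle arrays, so their overlap is a description.

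No probe set separated the doses within a pool. For 50 minus 15 mg/kg 0 probe sets passed with limma (0%), where the lowest adjusted p was 0.525 and 1749 had an unadjusted p under 0.05 (5.63%). For 0.1 mg/kg minus vehicle 0 passed (0%), the lowest adjusted p was 0.229, and 2134 had an unadjusted p under 0.05 (6.87%). Without variance shrinkage both counts were also 0. Leaving out replicate 3 at 0.1 mg/kg or replicate 4 of vehicle gave 1 call for 0.1 mg/kg minus vehicle. A comparison that misses the threshold does not show equal levels: of the 274 rises, 244 had a higher mean at 50 than at 15 mg/kg, and of the 87 falls, 70 had a lower one, against 46.7% of all probe sets with a higher mean at 50 mg/kg. The median of 50 minus 15 mg/kg was 0.14 over the rises and -0.10 over the falls.

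The 20 arrays can be cut into 2 comparisons that share none, each fitted on its own 10 arrays. In one such cut 11 probe sets passed for 15 mg/kg against vehicle (0.0354%) and 142 for 50 against 0.1 mg/kg (0.457%), and 10 passed in both with the same sign. Of the 142, 132 (93%) had the same sign at 15 mg/kg against vehicle, against 54.5% of all probe sets, and 76 of them had an unadjusted p under 0.05 there. In the other cut 89 passed for 50 mg/kg against vehicle (0.287%) and 25 for 15 against 0.1 mg/kg (0.0805%), and 17 passed in both with the same sign. Of those 89, 83 (93.3%) had the same sign in the other 10 arrays, against 59.1% of all probe sets. The second overlap fell to between 9 and 11 when any 1 of replicates 1, 2, 3 and 5 at 0.1 mg/kg or replicates 1, 3, 4 and 5 at 15 mg/kg was left out. The tissue levels moved with these cuts: the median difference of the muscle list was 0.19 for 15 mg/kg against vehicle and -0.90 for 50 against 0.1 mg/kg, that of the pancreas list was 1.18 and -0.62, and their part in the overlap was not tested. Without the 9 arrays the overlaps were 0 and 1. Genes that passed on both sides of both cuts included Cyp1a1, Cyp2c6v1, Cyp2c7, Abcc3, Ugt2b1 and Stbd1, all of them higher at 15 and 50 mg/kg.

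**Figure D2:**
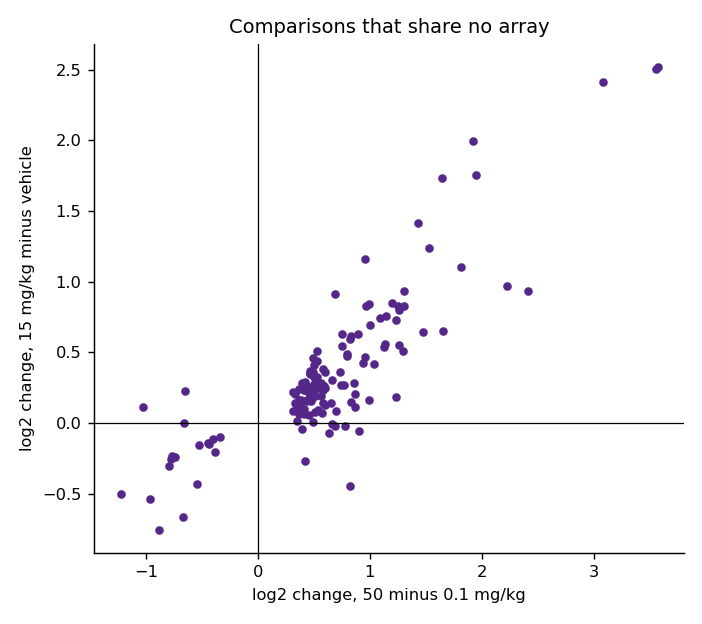
The 142 probe sets that passed for 50 against 0.1 mg/kg, with that log2 difference on the horizontal axis and the log2 difference of 15 mg/kg minus vehicle, measured on 10 other arrays, on the vertical axis. Each point is a probe set, and 132 of the 142 lie in the quadrants of equal sign.

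The oxidizing enzymes led the rises. Cyp2c7, a P450 of the CYP2C family, had levels of 6.92, 7.38 and 9.26 (lowest, median and highest) at 15 and 50 mg/kg, against 3.96, 4.43 and 5.70 in vehicle and 0.1 mg/kg. The pools did not overlap, and the fold was 8.24 (log2 difference 3.04, SE 0.24, adjusted p = 4.7e-07, n = 10 arrays per pool). Cyp1a1, the P450 most used as a readout of the aryl hydrocarbon receptor, had 9.61, 10.72 and 11.51, against 7.21, 7.50 and 8.05. Every exposed array was again above every array of the other pool, by 8.15-fold on average (log2 difference 3.03, SE 0.15, adjusted p = 1.76e-10). Cyp2a3, a P450 of the CYP2A family, had 8.16, 8.62 and 9.73, against 4.67, 5.93 and 7.35, without overlap (log2 difference 2.75, SE 0.28). Cyp2c6v1 had 13.56, 13.74 and 13.88, against 11.33, 11.94 and 12.28 (log2 difference 1.85, SE 0.09), and a probe set that the annotation assigns to Cyp2b1 and Cyp2b2 together had 13.86, 13.92 and 14.09, against 11.39, 11.96 and 12.36 (log2 difference 1.96, SE 0.095). The pools overlapped in neither.

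**Figure D3:**
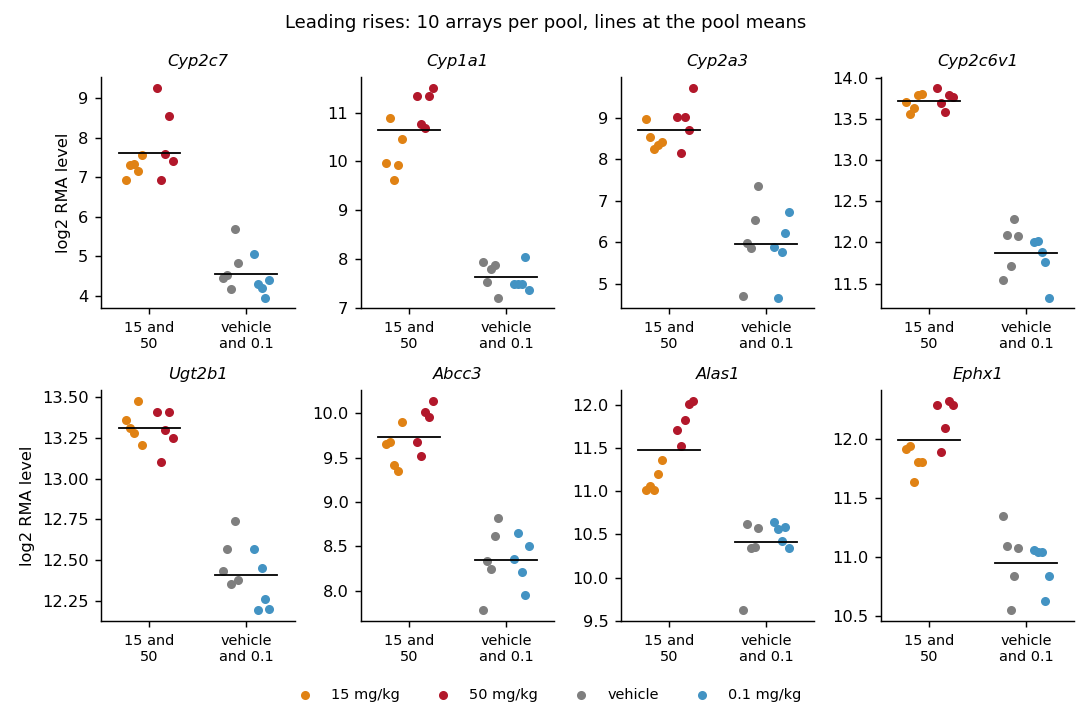
Log2 RMA level (vertical) on each array for 8 genes that rose, with the 10 arrays of 15 and 50 mg/kg left of the 10 arrays of vehicle and 0.1 mg/kg in each panel. Points are arrays coloured by dose, lines are pool means, and in all 8 panels the lowest exposed array lies above the highest array of vehicle and 0.1 mg/kg.

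The gap between the upper doses varied from gene to gene. Cyp2c6v1 differed by 0.05 between 50 and 15 mg/kg (95% interval -0.23 to 0.32), and Ugt2b1 by -0.03 (-0.22 to 0.16). Cyp1a1 differed by 0.96 (0.50 to 1.41), with means of 7.67, 7.57, 10.17 and 11.13 in vehicle, 0.1, 15 and 50 mg/kg. Alas1, whose product starts heme synthesis, differed by 0.69 (0.39 to 1.00), and Aldh1a1, which oxidizes retinaldehyde, by 1.02 (0.53 to 1.51). These intervals are for single genes, and no difference between 50 and 15 mg/kg passed after adjustment over all probe sets.

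The CAR and PXR list had 25 measured genes, of which 15 rose, 0 fell and 10 did not pass; its median difference was 0.52. Over 1 probe set for each of 14217 genes, 1.44% rose and 0.373% fell, with a median of 0.003. These shares are the background for the list counts that follow. Beside the P450 genes its members of smallest p included Ephx1, the microsomal epoxide hydrolase, with 11.63, 11.92 and 12.32, against 10.55, 11.04 and 11.35 (log2 difference 1.04, SE 0.09, adjusted p = 1.01e-06). It also held Ugt2b1, a glucuronosyltransferase, with 13.10, 13.30 and 13.48, against 12.19, 12.41 and 12.74 (log2 difference 0.90, SE 0.06). The pools overlapped in neither. Cyp3a23-3a1 rose 1.80-fold, while Cyp3a2, of the same P450 family, rose 1.13-fold (log2 difference 0.18, SE 0.04, adjusted p = 0.0429), a call that ended without any 1 of 15 arrays, with an adjusted p of up to 0.0836. The receptors' own messages did not pass: Nr1i2 had a log2 difference of 0.09 (SE 0.06) and Nr1i3 one of -0.12 (SE 0.10). Without the 9 muscle or pancreas arrays 3 members of the list passed, 23 of 25 differences were positive and the median was 0.63; with the same arrays and 2 pooled means, 7 passed.

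The conjugating enzymes followed. Of 8 glucuronosyltransferase and cofactor genes 5 rose (62.5%, against 1.44% of all genes) and 0 fell, with a median difference of 0.50. Ugt2b10 had 10.36, 10.84 and 11.36, against 8.67, 9.41 and 9.86 (2.68-fold, SE 0.15 on the log2 scale), and Ugt2b15 had 11.18, 11.65 and 11.92, against 10.35, 10.64 and 11.01 (1.89-fold). Ugt2b35 rose 1.28-fold (log2 difference 0.35, SE 0.05). Related members of this family share sequence, so their probe sets may share signal. Among 19 glutathione transferases 8 rose (42.1%, against 1.44% of all genes) and 0 fell. Their median was 0.28, with differences from -0.17 to 0.84. Gstt2 had 9.37, 9.71 and 9.87, against 8.93, 9.21 and 9.40 (1.40-fold, SE 0.06 on the log2 scale, adjusted p = 0.000144), and 9 of its 10 exposed arrays lay above every array of the other pool. Gsta3 rose 1.41-fold, Gsta4 1.25-fold and the microsomal transferase Mgst2 1.21-fold. Against vehicle alone in the same fit 3 of the 19 passed, and against 0.1 mg/kg alone 2. Without the 9 muscle or pancreas arrays 1 of the glucuronosyltransferase list and 0 of the glutathione transferases passed.

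The supply side of P450 function was represented by 3 of 13 genes that rose (23.1%, against 1.44% of all genes), and 0 fell. Alas1 had 11.01, 11.45 and 12.05, against 9.62, 10.50 and 10.65 (2.10-fold, log2 difference 1.07, SE 0.10, adjusted p = 5.12e-06), without overlap. Por, the P450 reductase, had 9.54, 9.89 and 10.19, against 8.80, 8.93 and 10.05, where replicate 1 of vehicle alone reached into the exposed range (1.80-fold, SE 0.11 on the log2 scale). Cyb5a, cytochrome b5, which passes electrons to some P450 enzymes, rose 1.20-fold (SE 0.04 on the log2 scale). The median of the 13 was -0.001, and the other 10 did not pass. Without the 9 muscle or pancreas arrays 0 of the 13 passed, with an adjusted p of 0.0988 for Alas1, 0.386 for Por and 0.583 for Cyb5a. The efflux pump Abcc3 had 9.35, 9.68 and 10.14, against 7.78, 8.35 and 8.82 (2.61-fold, SE 0.12), again without overlap. In the transporter list 1 of the 18 genes rose (5.56%, against 1.44% of all genes).

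Of 9 aryl hydrocarbon receptor genes 2 rose (22.2%, against 1.44% of all genes). These were Cyp1a1 and Ahr itself (1.66-fold, log2 difference 0.73, SE 0.14, limma adjusted p = 0.00911). A second, dimmer probe set of Ahr had a difference of 0.13 (SE 0.07) and did not pass. Cyp1a2, the other well-known target in liver, had 7.78, 9.03 and 9.49, against 7.01, 7.96 and 9.09, so the pools overlapped (log2 difference 0.92, SE 0.24, adjusted p = 0.0640). Nqo1, a quinone reductase, had a difference of 0.56 (SE 0.16, adjusted p = 0.0967), and Cyp1b1 one of 0.21 (SE 0.08). The list's median was 0.21. Cyp1a1 passed without the 9 muscle or pancreas arrays and Ahr did not (log2 difference 0.97, adjusted p = 0.366).

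The proteasome list gave the clearest case of a group that moved by little. All 25 measured subunit genes had a positive pooled difference, 13 rose (52%, against 1.44% of all genes) and 0 fell. The median was 0.19 or 1.14-fold, with a range from 0.07 to 0.32. None of the 25 passed at 15 mg/kg against vehicle and 6 passed at 50 mg/kg against vehicle. The list median was -0.08 for 0.1 mg/kg minus vehicle and 0.095 for 50 minus 15 mg/kg. The pooled difference therefore also draws on lower levels at 0.1 mg/kg than in vehicle. Psma6, a subunit of the outer ring of the core, had 11.96, 12.05 and 12.16, against 11.77, 11.88 and 11.94, so that every exposed array lay above every other although the fold was 1.14 (log2 difference 0.19, SE 0.04, adjusted p = 0.00928). Psmd1, whose promoter is printed above, had 8.92, 9.14 and 9.34, against 8.62, 8.80 and 9.02 (1.25-fold, SE 0.06, adjusted p = 0.0105). Psmc5 and Psmc3, ATPases of the cap that unfold substrates, rose 1.19-fold (SE 0.04, adjusted p = 0.00377) and 1.18-fold (SE 0.04, adjusted p = 0.00297). Their pools overlapped, with 6 and 7 of 10 exposed arrays above the highest array of vehicle and 0.1 mg/kg. In the comparisons that share no array, 24 of 25 differences were positive for 15 mg/kg minus vehicle (median 0.09), against 7356 of 14217 genes. For 50 minus 0.1 mg/kg 25 of 25 were positive (median 0.28), against 6909. The pooled difference is the mean of these 2 comparisons, and the subunits were read on the same arrays. Their signs are therefore a description and no separate support.

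**Figure D4:**
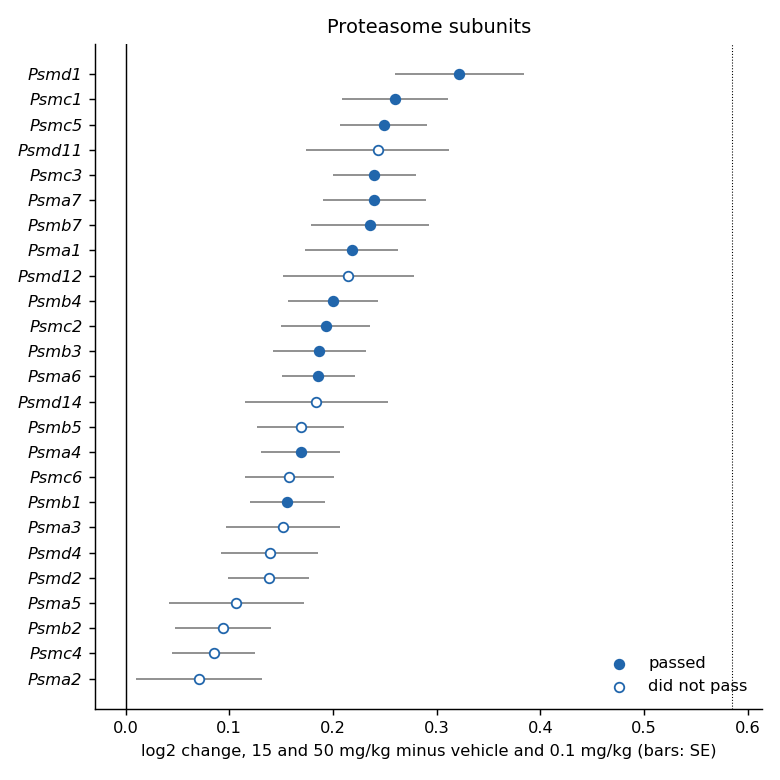
Pooled log2 difference (15 and 50 mg/kg minus vehicle and 0.1 mg/kg, horizontal) of the 25 measured proteasome subunit genes, 1 probe set each, with bars of 1 standard error. Filled points passed and open points did not, the dotted line is 1.5-fold, and all 25 points lie between 0 and that line.

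How many of these subunits passed depended on the arrays. The count was 7 without replicate 1 at 15 mg/kg or replicate 4 of vehicle, and 8 without replicate 2 or 5 at 0.1 mg/kg, replicate 2 of vehicle or replicate 5 at 50 mg/kg. It was 2 against vehicle alone and 7 against 0.1 mg/kg alone. Without the 9 muscle or pancreas arrays 0 passed, 24 of 25 differences were positive and the median was 0.17. With covariates for muscle, pancreas and erythroid levels 6 passed.

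Genes beside the list were named after their values were seen. Nfe2l1, the NRF1 gene, had 8.13, 8.31 and 8.50, against 7.94, 8.09 and 8.18 on its brightest probe set (1.18-fold, log2 difference 0.24, SE 0.05, adjusted p = 0.0105), a call that held in each fit without 1 array. Its other probe sets had differences of 0.20 (adjusted p = 0.0420) and 0.22 (adjusted p = 0.100), and the call of the first ended without any 1 of 15 arrays. Vcp, the ATPase that delivers ubiquitin-tagged proteins to the proteasome, had a difference of 0.17 (SE 0.04, adjusted p = 0.0358), a call that ended without any 1 of 12 arrays. Nsfl1c, a cofactor of Vcp, had one of 0.23 (SE 0.05, adjusted p = 0.0227, and 0.0523 without replicate 1 at 15 mg/kg). The interferon-inducible subunits did not pass, with differences of -0.19 for Psmb8 (SE 0.16), -0.18 for Psmb9 (SE 0.15) and 0.003 for Psmb10 (SE 0.09). Neither did the activator genes Psme1 (0.02, SE 0.05) and Psme2 (0.08, SE 0.06), nor Nfe2l2, the NRF2 gene (0.09, SE 0.06).

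**Figure D5:**
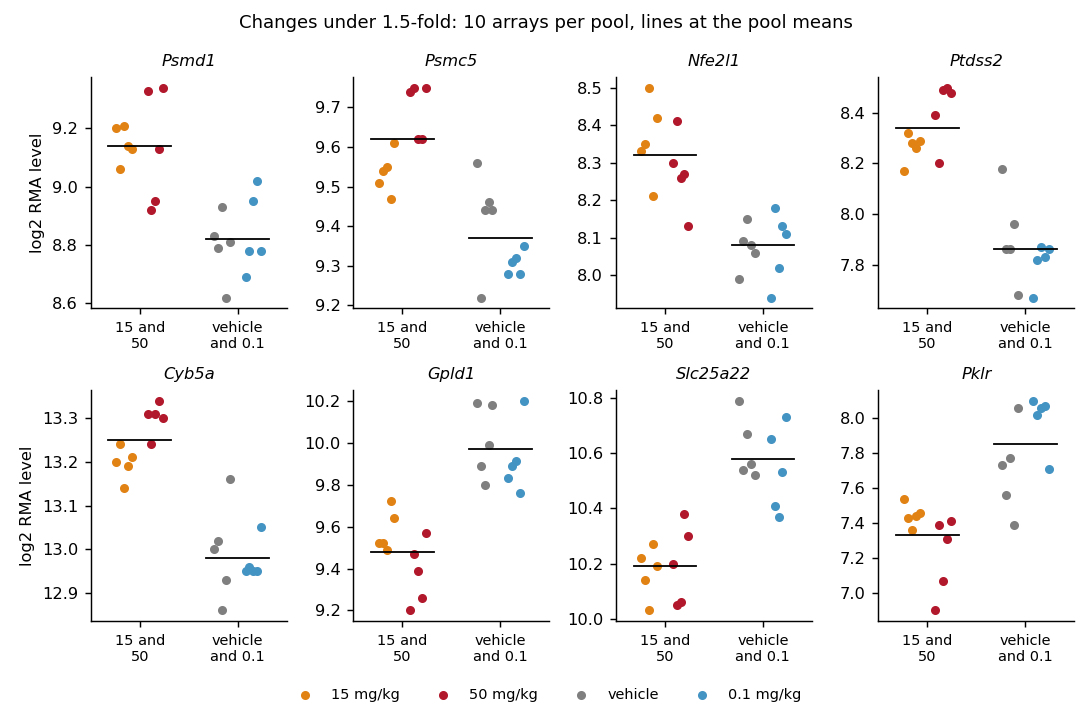
Log2 RMA level (vertical) on each array for 8 genes that passed with less than 1.5-fold, 5 higher and 3 lower, with the 10 arrays of 15 and 50 mg/kg left of the 10 arrays of vehicle and 0.1 mg/kg in each panel. Points are arrays coloured by dose and lines are pool means; for Gpld1 the pools do not overlap, and in the other 7 panels they overlap.

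Among the rises under 1.5-fold with the smallest p, several had pools that did not overlap. Pecr, a peroxisomal enoyl-CoA reductase, had 11.95, 12.14 and 12.42, against 11.49, 11.72 and 11.91 (1.37-fold, log2 difference 0.46, SE 0.05, adjusted p = 6.78e-05). Vps26a, a part of the retromer that recycles membrane proteins, had 8.09, 8.36 and 8.75, against 7.53, 7.91 and 8.02 (1.40-fold, SE 0.07), while its second probe set had a difference of 0.31 that did not pass (adjusted p = 0.0600). Tex2 had 9.48, 9.73 and 10.01, against 9.02, 9.22 and 9.41 (1.40-fold, SE 0.07). In all 3 every exposed array was above every other array. Ptdss2, which makes phosphatidylserine, rose 1.40-fold (SE 0.06, adjusted p = 5.59e-05), and 9 of 10 exposed arrays lay above the other pool; a second probe set rose by 0.42 and its dimmest probe set had a difference of 0.25 that did not pass. Entpd5, an endoplasmic reticulum nucleotidase, rose 1.46-fold, Hspb8, a small heat shock protein, 1.42-fold, the aldehyde reductase Akr7a2 1.32-fold, Arhgef7 1.33-fold and Cd99 1.25-fold. On another probe set Entpd5 rose 1.60-fold (log2 difference 0.68, SE 0.087), above the 1.5-fold limit, and on a further one its difference of 0.30 did not pass. A second probe set of Hspb8 had a difference of 0.385 (adjusted p = 0.106), and those of Arhgef7, both dimmer, had 0.12 and 0.04; none of these passed. A dimmer probe set of Cd99 had a difference of -0.05 (SE 0.06). Across the array 41 probe sets had every exposed array above every other (0.132%), and 14 of these differed by less than 1.5-fold.

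Other rises of at least 2-fold included Aldh1a1 and Ces2c, which are also counted in the CAR and PXR list. Dnajb3, a co-chaperone of the DnaJ family, had 4.85, 6.33 and 7.04, against 4.10, 4.35 and 5.51 (3.19-fold, SE 0.17). Aldh1a1 had 8.85, 9.93 and 10.99, against 8.0, 8.35 and 9.26 (3.02-fold, SE 0.17), and 8 of 10 exposed arrays lay above the other pool. Ces2c, a carboxylesterase, had 6.07, 6.97 and 8.02, against 5.12, 5.55 and 6.03 (2.75-fold, SE 0.18), without overlap. Meox2, a homeobox gene, rose 2.56-fold (SE 0.23, adjusted p = 0.00377), with group means of 5.97, 6.85, 7.82 and 7.72 in vehicle, 0.1, 15 and 50 mg/kg. Ddc, aromatic amino acid decarboxylase, rose 2.17-fold (SE 0.13), but a dimmer probe set of it had a difference of 0.27 (SE 0.12) and did not pass. Stbd1, a glycogen-binding protein, rose 2.08-fold, and Tsku, a secreted leucine-rich protein, 2.06-fold.

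Of 29 genes in the list of PPAR-alpha targets and fatty acid oxidation 7 rose (24.1%), 0 fell and 22 did not pass. Of its differences 27 were positive, with a median of 0.17. Of all genes 1.44% rose, the share to set beside this list and the NRF2 list below. Pdk4, which restrains glucose oxidation, had 9.34, 9.95 and 10.25, against 8.58, 9.04 and 9.25 (1.87-fold, SE 0.08, adjusted p = 2.72e-06), without overlap, and its second probe set rose by 0.40. Ehhadh and Eci1, enzymes of fatty acid oxidation, rose 1.64-fold (SE 0.15) and 1.36-fold (SE 0.09), and the carnitine carrier gene Slc25a20 rose 1.18-fold. Against vehicle alone 1 member passed and against 0.1 mg/kg alone 2. Without the 9 muscle or pancreas arrays 1 passed. Of 20 NRF2 genes 4 rose, 0 fell, and the median was 0.18, while 0 passed without the 9 muscle or pancreas arrays; Me1, malic enzyme, rose 1.49-fold and Gstm1 1.43-fold. The difference of Me1 was 0.99 for 50 against 0.1 mg/kg and 0.16 for 15 mg/kg against vehicle. On a second probe set, which also passed in the pooled comparison, these were 1.23 and 0.185. Of 19 cholesterol synthesis genes 0 rose or fell with limma although 19 differences were positive, with a median of 0.215. Of these, 6 had an unadjusted p under 0.05. Replicate 1 of vehicle stood apart, with a list mean of 8.58 beside 9.39 on the next array of its pool. Without it the median was 0.12. Without replicate 3 at 15 mg/kg 1 member passed. The smallest adjusted p among its named members was 0.0789, for Pmvk (log2 difference 0.33, SE 0.09), a kinase of the mevalonate pathway.

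The falls were fewer and smaller. Plaat3, a phospholipase and acyltransferase, had 10.04, 10.27 and 10.48, against 10.62, 10.93 and 11.34 (log2 difference -0.67, SE 0.08, adjusted p = 0.000104). Gpld1, a secreted phospholipase that cleaves membrane anchors, had 9.20, 9.51 and 9.72, against 9.76, 9.90 and 10.20 (log2 difference -0.49, SE 0.07, adjusted p = 0.000358). These were the 2 probe sets (0.00644%) whose exposed arrays all lay below every other array. Slc25a22, a mitochondrial glutamate carrier, fell by 0.39 (SE 0.06), and Pklr, liver pyruvate kinase, fell by 0.52 (SE 0.08) and 0.49 (SE 0.09) on its 2 probe sets. Rnase4 fell by 0.55 (SE 0.10) and 0.30 (SE 0.06) on its 2, and Ang, another secreted ribonuclease, fell by 0.34 (SE 0.07). Aldh1b1, a mitochondrial aldehyde dehydrogenase, fell by 0.45, Gas6, a secreted ligand of TAM receptors, by 0.55, Sfmbt2 by 0.34, the RNA methylation factor Wtap by 0.29 and the telomere protein Terf2 by 0.26. Further probe sets of Gas6 (-0.03 and -0.04), Wtap (0.02) and Terf2 (-0.08 and -0.01) did not pass.

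Several of the largest falls were of genes at low levels. The unnamed locus LOC102554026 had 4.89, 5.71 and 6.50, against 6.07, 6.37 and 7.46 (log2 difference -0.97, SE 0.19, adjusted p = 0.0129). Rasd2, a small GTPase, fell by 0.86 (SE 0.15) on a probe set at a level similar to that of its other one, which had a difference of -0.07 (SE 0.075) and did not pass. Ccdc68 fell by 0.82 (SE 0.15) and Gen1, a nuclease that resolves DNA junctions, by 0.67 (SE 0.12), both with no array above 4.92. Nfkbiz, a nuclear regulator of NF-kappaB targets, fell by 0.68 (SE 0.15, adjusted p = 0.0226, and 0.0511 without replicate 1 at 15 mg/kg), but its other probe set had a difference of 0.14 (SE 0.05). Avpr1a (-0.75), Gdf11 (-0.68), Depp1 (-0.63), Lamb3 (-0.63) and Qsox1 (-0.61) passed with adjusted p of 0.0296 to 0.0385, and each of these calls ended without any 1 of 7 to 14 arrays. None of these 5 passed without the 9 muscle or pancreas arrays, and the differences of Depp1 and Lamb3 were -0.237 and -0.245 there. Second probe sets of Gdf11 (0.006) and Qsox1 (-0.58) did not pass. Of 17 NF-kappaB genes 2 fell (11.8%, against 0.373% of all genes), Nfkbiz and the adhesion receptor Vcam1 (-0.38, SE 0.08). In this list 0 rose, and the median was -0.18. The count was 1 without replicate 1 at 15 mg/kg and 0 without the 9 muscle or pancreas arrays, where the difference of Vcam1 was -0.22.

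Of the Kupffer cell markers, genes of the resident macrophages of the liver, 4 of 12 passed, all lower, against 0.373% of 14217 genes. All 12 measured markers had a negative pooled difference, from -0.38 to -0.09, with a median of -0.27, against 6889 of 14217 genes with a negative one. In the same fit 0 of the 12 fell at 15 mg/kg against vehicle and 5 fell at 50 mg/kg against vehicle. C1qb, a complement subunit, had 9.69, 9.97 and 10.25, against 9.93, 10.25 and 10.70 (log2 difference -0.31, SE 0.07, adjusted p = 0.0316). Cd163, a scavenger receptor for hemoglobin, had 8.72, 8.98 and 9.15, against 8.88, 9.30 and 9.65 (-0.30, SE 0.07), and the lysosomal glycoprotein Cd68 had 8.63, 8.97 and 9.36, against 9.0, 9.26 and 9.55 (-0.30, SE 0.07). The pools overlapped in all 3. In bulk tissue fewer cells of a type and less RNA per cell cannot be told apart. All 12 markers were lower for 15 mg/kg against vehicle (median -0.21) and for 50 against 0.1 mg/kg (median -0.31), comparisons that share no array. The pooled difference is the mean of these 2, so their signs are a description and no separate support. The number that fell was 0 without replicate 1 at 0.1 mg/kg, replicates 1 or 5 at 15 mg/kg, or replicates 3 or 4 at 50 mg/kg. It was 1 or 2 without replicates 1, 3 or 4 of vehicle, replicates 3, 4 or 5 at 0.1 mg/kg, replicates 2 or 4 at 15 mg/kg, or replicate 5 at 50 mg/kg. It was 0 against 0.1 mg/kg alone and 0 without the 9 muscle or pancreas arrays, where 11 of 12 differences were negative with a median of -0.31. Of 7 neutrophil markers 0 passed with limma and 4 had an unadjusted p under 0.05, while all 7 differences were negative, with a median of -0.36. Some other blood cell lists had the same direction: 13 of 15 erythroid markers were negative with a median of -0.26, and 6 of 7 megakaryocyte and platelet markers with one of -0.15. Of 12 T and NK cell markers 8 were negative and 4 positive (median -0.04), and of 4 B cell markers 2 were negative and 2 positive. None of these members passed, and their part in the Kupffer result was not tested.

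Periportal and thyroid genes held calls in a part of each list. Of 13 periportal hepatocyte genes 3 fell (23.1%, against 0.373% of all genes), with a list median of -0.08. These were Aldh1b1, Asl of the urea cycle (-0.41, SE 0.09, limma adjusted p = 0.0316) and Hal of histidine breakdown (-0.35, SE 0.08, limma adjusted p = 0.0422). On these probe sets the calls of Asl and Hal ended without any 1 of 9 and 16 arrays. The count was therefore 1 in 8 fits that leave out an array: replicates 1, 2 or 5 at 0.1 mg/kg, 1 or 4 at 15 mg/kg, 1 or 4 at 50 mg/kg and 3 of vehicle. A second probe set of Asl fell by 0.46 (SE 0.097, limma adjusted p = 0.0197), and that call held in each of the 20 fits without 1 array. Of the 13 pooled differences 11 were negative. In the comparisons that share no array, 1 of the 13 was positive for 15 mg/kg against vehicle (median -0.225). For 50 against 0.1 mg/kg 7 were positive (median 0.007). Among 14 thyroid hormone carrier and target genes Me1 rose and Serpina7, thyroxine-binding globulin, fell by 0.28 (SE 0.06, adjusted p = 0.0226, and 0.0505 without replicate 1 at 15 mg/kg). Dio1, the liver deiodinase, had a difference of -0.36 (SE 0.15) and did not pass. Of 29 cell cycle genes, 12 ribosomal protein genes and 23 oxidative phosphorylation genes 0 passed with limma, with list medians of -0.10, -0.02 and 0.05, and 1, 0 and 3 had an unadjusted p under 0.05.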

How the data were processed

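RNA was measured in 20 liver samples on the Affymetrix Rat 230 2.0 array, from 100 ng of total RNA each per the labels' protocols. The deposited values are on the log2 scale; RMA, named per the submitters' processing notes, combines background correction, quantile normalization and probe summary. They were used as deposited. Of 31099 probe sets, 57 controls were left out. Names came from the platform annotation: 20826 probe sets had 1 symbol (20758 matched in RefSeq), 436 several and 9780 none. Array to array correlations were 0.983 to 0.995 and no arrays were identical.

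The fit was limma 3.58.1 in R 4.3.3 with 4 group means and Benjamini-Hochberg adjustment over all 31042 probe sets; Python 3.11.15 drew figures and searched promoters. The scripts were tested on simulated data. Lists used 1 probe set per gene, the one of highest mean level. Genes were named by a rule: the 12 largest changes each way, the 12 of smallest p each way under 1.5-fold, up to 4 members of each list by p, and index genes. Exceptions are marked in the text. The comparison, the lists and the index genes were chosen with earlier results of these data known. Replicate numbers were not taken to pair samples. Deviations of same-numbered arrays had a median correlation of 0.001 over 30 pairs, and 10 of these were over 0.1. With the same leading digit of the sample number the median was 0.042 over 37 pairs, 17 of them over 0.1. With other digits it was -0.018 over 113 pairs, 32 of them over 0.1. A median near 0 does not exclude pairing. Alternatives covered blocks, scaling, filters, shrinkage, weights, covariates, other references and leaving out arrays; fits without the 9 arrays and with 2 pooled means were added after seeing the data.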

Additional observations from a re-analysis of the deposited data

Results flagged for a closer look

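Levels of 93 named probe sets and means of 23 gene lists were examined in both pools of 10 arrays. Of these 232 sets, 28 (12.1%) held 1 array whose gap to its nearest neighbour was a larger share of the pool's range than Dixon's critical value allows. Chance flags about 1 in 20 sets. Each value below is a log2 level, followed by that of the nearest array of its pool, and their part in the results was not tested beyond the fits without 1 array.

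At 15 and 50 mg/kg, replicate 3 at 50 mg/kg was lowest for Avpr1a, at 5.63 beside 6.53. Replicate 1 at 50 mg/kg was lowest for Gdf11, at 4.58 beside 5.16, and highest for Vps26a, at 8.75 beside 8.41. Replicate 4 at 50 mg/kg was lowest for Terf2, at 5.28 beside 5.52, and replicate 2 for Cyp1a2, at 7.78 beside 8.72. Replicate 3 at 15 mg/kg was lowest for Gsta4, at 11.05 beside 11.22, and for the mean of the cholesterol synthesis list, at 9.05 beside 9.59.

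Replicate 1 of vehicle stood apart in 9 sets of the vehicle and 0.1 mg/kg pool. It was highest for Por (10.05 beside 9.06), Cyp3a23-3a1 (13.42 beside 12.89), Aldh1a1 (9.26 beside 8.6) and Slc25a20 (10.09 beside 9.87), and lowest for Alas1 (9.62 beside 10.34), Tsku (7.57 beside 8.35) and Ccdc68 (3.51 beside 4.18). It also had the lowest mean of the cholesterol synthesis list (8.58 beside 9.39) and the highest of the thyroid hormone list (8.01 beside 7.89). Replicate 5 of vehicle was highest for Mgst2 (10.9 beside 10.75), Gsta4 (11.36 beside 11.05) and Psmc3 (10.5 beside 10.36). Replicate 3 of vehicle was lowest for Thrsp (3.36 beside 3.78) and for the CAR and PXR list mean (8.36 beside 8.54), and replicate 4 was highest for Crp (11.92 beside 11.26). Replicate 3 at 0.1 mg/kg was lowest for Depp1 (6.93 beside 7.65) and Serpina7 (12 beside 12.19), and replicate 5 was lowest for Eci1 (10.43 beside 10.79) and for the glucuronosyltransferase list mean (9.23 beside 9.4). Replicate 2 at 0.1 mg/kg had the highest mean of the exocrine pancreas list (6.95 beside 4.73) and the lowest of the Kupffer list (9.82 beside 10.02).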

How the results depend on the processing

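No named probe set that passed changed sign under any alternative that was fitted, and 69 of these 87 passed in each of the 20 fits without 1 array. Values of named probe sets that did not pass changed sign 90 times over all probe sets and alternatives. The total of 361 probe sets lay between 242 and 435 under 14 of the alternatives. It was 130 against 0.1 mg/kg alone, 10 without the 9 muscle or pancreas arrays, 36 without them and with 2 pooled means, and 232 to 372 with 1 array left out. The 294 under 1.5-fold became 167 against vehicle alone, 74 against 0.1 mg/kg alone, 0 without those arrays, 12 without them with 2 pooled means, and 175 to 306 with 1 array left out. For 50 against 15 mg/kg the count stayed 0 with 1 array left out, and for 0.1 mg/kg against vehicle it was 0 to 1. The same-sign overlap of 10 became 5 with a replicate block, 6 with the leading digit of the sample number as a block, 2 without variance shrinkage, 4 with tissue covariates, 0 without those arrays and 7 to 14 with 1 array left out. The overlap of 17 became 4, 6 and 1 without shrinkage, with covariates and without those arrays, and 9 to 19 with 1 left out. The 43 probe sets without overlap became 419 without those arrays, where each pool has fewer arrays, and 43 to 58 with 1 left out.

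Of the lists, the proteasome count of 13 was 8 with 2 pooled means, 2 against vehicle alone, 7 against 0.1 mg/kg alone, 6 with covariates, 0 without those arrays under either coding, and 7 to 13 with 1 left out. The CAR and PXR count of 15 was 3 without those arrays, 7 without them with 2 pooled means, and 14 to 15 with 1 left out. Glutathione transferases, 8, gave 3 against vehicle alone, 2 against 0.1 mg/kg alone, 0 and 2 without those arrays, and 6 to 10. Glucuronosyltransferases, 5, gave 1 and 2 without those arrays, and 5 to 5. PPAR-alpha genes, 7, gave 4 with 2 pooled means, 1 against vehicle alone, 2 against 0.1 mg/kg alone, 4 with covariates, 1 and 0 without those arrays, and 5 to 7. Kupffer markers, 4, gave 0 with 2 pooled means, 2 with a replicate block, 1 without shrinkage, 0 against 0.1 mg/kg alone, 0 with covariates, 0 and 1 without those arrays, and 0 to 5. Periportal genes, 3, gave 1 without shrinkage, 0 against 0.1 mg/kg alone, 0 without those arrays under either coding, and 1 to 3.

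With the replicate block the total was 323 (242 higher, 81 lower), of which 291 were shared with the 361. Replicate numbers were not taken to pair the samples. Fewer arrays entered the fits that leave some out, and the cause of the differences between fits was not tested. Scaling to equal medians gave 333 higher and 72 lower.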
